A study of Rattus norvegicus with 6 samples.

Results

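Axon guidance ligands and receptors were compared in SNI and control samples of the PL, the prelimbic part of the medial prefrontal cortex. A gene belonged to the set when its symbol in the platform annotation began with Sema, Plxn, Nrp, Efna, Efnb, Epha, Ephb, Robo or Unc5, began with Slit or Ntn followed by a digit, or was Dcc. The rule found 58 of the 14217 genes with values, read by 97 of the 31042 probe sets, and used no measured value. They were 17 semaphorins, 8 plexins, 2 neuropilins, 5 ephrins, 12 Eph receptors, 3 Slits, 3 Robos, 2 netrins, and Dcc with 3 Unc5 receptors. The remaining 2, Unc50 and Unc5cl, matched by their letters only, because Unc50 is a membrane protein of the Golgi and Unc5cl lacks the netrin-binding ectodomain of the Unc5 receptors. All samples were contralateral PL of male Sprague Dawley rats, 6 to 7 weeks old when acquired, taken 14 days after surgery. In the SNI group (3 samples) the tibial and common peroneal branches of the left sciatic nerve were cut and the sural nerve was spared, which is a model of neuropathic pain. In the control group (3 samples) the same nerves were exposed and left uncut. The sources do not say whether each sample came from its own rat, so the p-values reflect only how far these samples lie apart, and that spread can be technical.

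Axon guidance proteins steer growing axons during development, and many of them are still made in the adult brain, where they act on dendritic spines, synapses, glia and vessels. Semaphorins signal through plexins, and the secreted class 3 semaphorins mostly need a neuropilin as co-receptor. Ephrins are held on the membrane and bind Eph receptor tyrosine kinases on the neighbouring cell. Slits bind Robo receptors, and netrins bind Dcc, which can attract axons, and Unc5 receptors, which repel them.

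The deposited log2 values were centred, so that a value is the distance of a sample from the median of the 6 samples for that probe set, and the middle pair of values lies evenly around 0. Levels could not be compared between genes, and the tissue could not be checked against its markers. On the first principal component of all probe sets, which held 35.8% of the variance, control samples 1 and 3 lay at 21.9 and 16.0, whereas control sample 2 lay at -6.18 and the SNI samples between -11.3 and -9.81. The mean of the 18 hybridization control probe sets, which read RNA spiked in at hybridization, was between 0.054 and 0.19 in the SNI samples and between -0.22 and -0.047 in the control samples.

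No axon guidance gene passed an adjusted p of 0.05 in limma, and neither did any other gene (0%). At an unadjusted p under 0.05, 4 of the 58 genes were higher in the SNI group and 10 were lower. The 4 higher genes made up 6.90% of the set, against 3.96% of all genes, and the 10 lower genes 17.2%, against 9.19%. In what follows, higher and lower without further qualification refer to this unadjusted p. The higher genes were the Eph receptor Ephb3, the netrin Ntn5, the semaphorin Sema4b and the ephrin Efna4. The lower genes were the Eph receptors Epha10 and Epha7, the netrin receptor Unc5a, the semaphorins Sema3c, Sema3d, Sema3e and Sema5a, the plexins Plxna4 and Plxnc1, and Unc50. Without Unc50 and Unc5cl, 9 of 56 were lower (16.1%). The 3 samples of each group did not overlap for 4 genes that were higher (6.39% of all genes behave so) and for 10 that were lower (13.7% of all genes), which are 6.90% and 17.2% of the set and thus close to the shares among all genes. The median difference of the set was -0.021 on the log2 scale, against -0.011 over all genes. The counts moved with single samples. Without SNI sample 3 they were 2 higher and 6 lower, while the shares of all genes were 2.36% and 5.70%. Without control sample 2 they were 7 and 13, while the shares of all genes were 8.53% and 14.6%. Without control samples 1 and 3 they were 4 and 11, with 6.58% and 10.9% of all genes. The counts of the set thus moved together with those of all genes when SNI sample 3 or control sample 2 was left out.

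**Figure D1:**
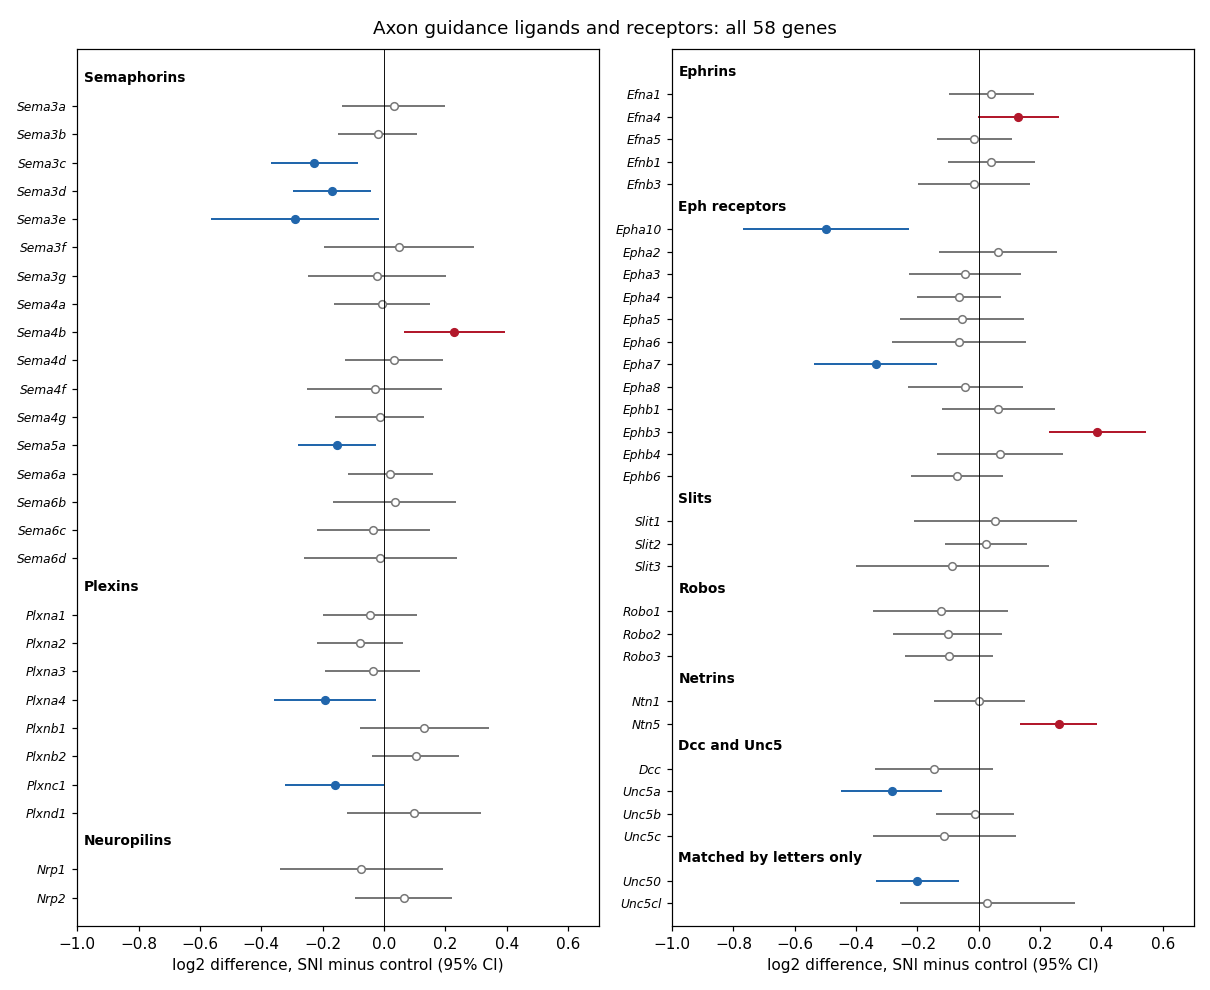
Difference of the SNI group from the control group (log2 scale, x axis) for each of the 58 genes, ordered by family, with 95% confidence intervals from limma. Filled red points are the 4 genes higher and filled blue points the 10 genes lower at an unadjusted p under 0.05, and open points are the others; differences run from -0.50 (Epha10) to 0.39 (Ephb3).

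The ephrin and Eph receptor genes held both ends of the range. Ephb3, a receptor tyrosine kinase for B ephrins, was at 0.11, 0.28 and 0.28 in SNI samples 1 to 3 and at -0.20, -0.19 and -0.11 in control samples 1 to 3. Every SNI value lay above every control value, and the means were 0.22 ± 0.10 and -0.17 ± 0.05 (SD, n = 3 each). The difference of 0.39 (SE 0.07, 95% CI 0.23 to 0.54), which is 1.31-fold, had the smallest p of the 58 genes and an adjusted p of 0.145 in limma. The other EphB receptors did not pass the test, with 0.07 for Ephb4, 0.06 for Ephb1 and -0.07 for Ephb6.

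Epha10, an Eph receptor whose kinase domain lacks catalytic activity, had the largest difference in the other direction. Its values were -0.39, -0.07 and -0.16 in the SNI samples and 0.07, 0.34 and 0.46 in the control samples. The groups did not overlap, although the SD was 0.16 (SNI) and 0.20 (control). The difference was -0.50 (SE 0.12, 95% CI -0.76 to -0.23, adjusted p = 0.200 in limma), or 0.708-fold. Epha7, a receptor for A ephrins that shapes cortical dendrites and spines, was at -0.22, -0.06 and -0.09 in the SNI samples and at 0.06, 0.23 and 0.35 in the control samples, again without overlap. Its difference was -0.34 (SE 0.09, 95% CI -0.53 to -0.14, adjusted p = 0.216 in limma).

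For Epha10 and Epha7 the order of the 6 samples was exactly the reverse of their order by the mean hybridization control. Among the 58 genes these were the only 2 in reverse order (3.45%) and none had the same order, while 65 of all genes (0.457%) were in reverse order. With that mean as a covariate the difference was 0.08 for Epha10 and 0.04 for Epha7, and neither passed the test. The mean hybridization control does not overlap between the groups, so this fit can hardly separate it from the group. The part of the hybridization controls in these differences was not tested.

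The promoters of Ephb3 and Epha10 are shown because these genes had the largest difference in each direction. They are the 250 bases before the gene start in RefSeq (assembly GRCr8), on the strand of the gene, with the GC box (GGGCGG on either strand, the core letters that Sp factors recognize) in capitals. Ephb3 lies on the minus strand at chr11:93363776-93364025 and Epha10 on the plus strand at chr5:142424046-142424295.
Ephb3: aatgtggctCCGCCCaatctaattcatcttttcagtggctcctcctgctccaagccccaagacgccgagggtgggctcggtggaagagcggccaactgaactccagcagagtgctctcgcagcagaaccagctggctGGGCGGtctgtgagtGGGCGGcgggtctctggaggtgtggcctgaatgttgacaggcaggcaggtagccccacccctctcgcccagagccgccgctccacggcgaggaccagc
Epha10: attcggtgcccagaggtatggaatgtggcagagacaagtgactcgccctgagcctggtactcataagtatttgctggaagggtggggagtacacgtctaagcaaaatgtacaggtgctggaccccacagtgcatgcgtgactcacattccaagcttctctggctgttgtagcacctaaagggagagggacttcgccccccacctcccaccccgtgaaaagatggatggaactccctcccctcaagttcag
The Ephb3 promoter held 3 GC boxes, 64.4% G and C, and 14 CpG pairs. The Epha10 promoter held none, 54.4% G and C, and 6 CpG pairs. Over all promoters the medians were 51.2% G and C and 5 CpG pairs. A GC box occurred in 30.5% of the 33469 promoters in the table. It occurred in 24 of the 42 axon guidance promoters that matched by symbol, which leave out Unc50 and Unc5cl. Of the genes with an unadjusted p under 0.05, Unc50 included, 12 promoters matched and 8 held a GC box. These were the promoters of the higher genes Ephb3, Ntn5 and Sema4b and the lower genes Epha7, Plxnc1, Sema3e, Unc50 and Unc5a. The GC box was thus found in genes of both directions. The full cAMP response element TGACGTCA was in 1.59% of all promoters and in 1 of the 42, and its core TGACG, which the full element contains, was in 18.2% and in 6 of the 42. The early growth response motif was searched as GCGTGGGCG, found in 0.478% of all promoters and 2 of the 42, and as GCGGGGGCG, found in 2.45% and 4 of the 42. The TATA box TATAAA was in 12.9% of all promoters and in none of the 42. All were searched on both strands, and a match is a description of the letters only.

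Seen by subfamily, 7 of the 8 EphA receptors had differences below 0, with a median of -0.06, and the exception was Epha2 at 0.06. Of the 4 EphB receptors, 3 had differences above 0, with a median of 0.07. Besides Epha10 and Epha7 for EphA and Ephb3 for EphB, no receptor of either subfamily passed the test. With the hybridization controls as a covariate the median of the 17 ephrin and Eph genes moved from -0.016 to 0.068. Among the ephrins, which are the ligands, Efna4 was higher in the SNI group, at 0.05, 0.02 and 0.09 against -0.08, -0.02 and -0.13. Its difference of 0.13 (95% CI 0.00018 to 0.26) stood at the edge of the test, with an unadjusted p of 0.0498 and an adjusted p of 0.379 in limma over genes. In the fit over probe sets its single probe set had an unadjusted p of 0.0698. Without control samples 1 and 3 the difference was 0.071 and did not pass. The other ephrins lay between -0.02 (Efnb3) and 0.04 (Efna1 and Efnb1).

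Among the semaphorins, plexins and neuropilins, 1 of 27 genes was higher and 6 were lower in the SNI group. These shares were 3.70% and 22.2%, against 3.96% and 9.19% of all genes. Sema3c, a secreted semaphorin, was at -0.09, -0.07 and -0.20 in the SNI samples and at 0.08, 0.07 and 0.16 in the control samples, without overlap. The difference was -0.23 (SE 0.06, 95% CI -0.36 to -0.09, adjusted p = 0.216 in limma). Sema3d, also secreted, was at -0.15, -0.11 and -0.05 against 0.06, 0.05 and 0.09. Its groups did not overlap either, and the difference was -0.17 (SE 0.05, adjusted p = 0.259 in limma). Sema3e, which can bind Plxnd1 without a neuropilin, was at 0.0015, -0.19 and -0.05 in the SNI samples and at 0.16, -0.0015 and 0.47 in the control samples. Here the groups overlapped and control sample 3 stood far above the rest. The difference was -0.29 (SE 0.12, adjusted p = 0.346 in limma). Without control sample 3 it was -0.16 and without control samples 1 and 3 together -0.08, and neither passed. The receptor Plxnd1 was at a difference of 0.10 (95% CI -0.12 to 0.31).

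The other 4 class 3 semaphorins were close to 0. Sema3a, which acts through Nrp1 and class A plexins, differed by 0.03 (95% CI -0.13 to 0.19), and Sema3f, the ligand of Nrp2, by 0.05 (95% CI -0.19 to 0.29). Nrp1 was at -0.07 and Nrp2 at 0.06, neither past the test. Without control samples 1 and 3 the difference of Nrp1 was 0.19 and that of Sema3f -0.16. The 2 probe sets of Nrp1 lay apart in control sample 2, at 0.04 and -0.58. The first of them was above its SNI values there, so the 0.19 rests on the other. Sema5a, a transmembrane semaphorin with thrombospondin repeats, was at -0.04, -0.02 and -0.06 in the SNI samples and at 0.12, 0.06 and 0.16 in the control samples. The groups did not overlap and the difference was -0.15 (SE 0.05, adjusted p = 0.296 in limma), whereas without control samples 1 and 3 it was -0.10 and did not pass.

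The single higher gene of this system was Sema4b, a transmembrane semaphorin found at synapses. It was at 0.03, 0.22 and 0.24 in the SNI samples and at -0.11, -0.06 and -0.03 in the control samples. The groups did not overlap, but SNI sample 1 lay close to the controls. The difference was 0.23 (SE 0.07, 95% CI 0.07 to 0.39, adjusted p = 0.249 in limma). Without SNI sample 3 it was 0.19 and did not pass. Sema4d, the ligand of Plxnb1, differed by 0.03 and Plxnb1 by 0.13 (95% CI -0.08 to 0.34), and neither passed.

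All 4 class A plexins, which serve as signalling receptors for class 3 and class 6 semaphorins, had differences below 0, with a median of -0.06. Of these, Plxna4 was lower, at -0.06, -0.15 and -0.10 against 0.21, 0.09 and -0.03, with a difference of -0.19 (SE 0.07, adjusted p = 0.317 in limma). Its groups did not overlap, and the lowest control lay near the highest SNI value. Plxna2 also had groups without overlap, but at -0.08 its unadjusted p was 0.223. Of the 4 plexins of classes B, C and D, 3 had differences above 0, none of which passed. The exception was Plxnc1, a receptor of Sema7a, which was lower at -0.01, -0.04 and -0.09 against 0.22, -0.0013 and 0.12. Its difference of -0.16 (SE 0.07) had an unadjusted p of 0.0477 and an adjusted p of 0.375 in limma. Without control samples 1 and 3 it was -0.05 and did not pass.

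None of the 6 Slit and Robo genes passed the test. The 3 Robo receptors were all below 0, with -0.12 for Robo1 (95% CI -0.34 to 0.09), -0.10 for Robo2 (95% CI -0.28 to 0.07) and -0.10 for Robo3 (95% CI -0.24 to 0.04). For Robo1, control sample 2 at 0.32 stood above the other controls, at 0.01 and -0.01, and the SNI samples, at -0.03, 0.04 and -0.07. With control sample 2 as the only control, Robo1 was at -0.34 and Robo3 at -0.18. For Robo2, control sample 2 at -0.09 lay below the SNI samples, at -0.08, -0.01 and -0.02. Against that control alone Robo2 would thus lie above 0. Robo1 and Robo3 did not pass in any of the 15 other ways of processing, and Robo1 changed sign in at least 1 of them. The Slits, their secreted ligands, showed no common direction, with 0.05 for Slit1, 0.02 for Slit2 and -0.09 for Slit3. Slit1 and Slit3 spread widely within groups, because SNI sample 2 was at -0.24 and -0.34 while SNI sample 1 was at 0.14 and 0.18.

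Among the netrins and their receptors, the ligand Ntn5 was higher and the receptor Unc5a was lower in the SNI group. Ntn5, a less studied netrin, was at 0.11, 0.10 and 0.11 in the SNI samples and at -0.21, -0.10 and -0.15 in the control samples. The groups did not overlap, and the SD of the SNI group, 0.0032, was far below the 0.05 of the control group. The difference was 0.26 (SE 0.05, 95% CI 0.14 to 0.38), or 1.20-fold, with an adjusted p of 0.189 in limma. Ntn1, the netrin that attracts axons through Dcc, differed by 0.0020 (95% CI -0.14 to 0.15). Unc5a, a repulsive netrin receptor, was at -0.13, -0.06 and -0.14 in the SNI samples and at 0.16, 0.29 and 0.06 in the control samples, without overlap. The difference was -0.28 (SE 0.07, 95% CI -0.44 to -0.12, adjusted p = 0.212 in limma). The other receptors were also below 0 without passing, with -0.15 for Dcc (95% CI -0.33 to 0.04), -0.11 for Unc5c and -0.01 for Unc5b.

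**Figure D2:**
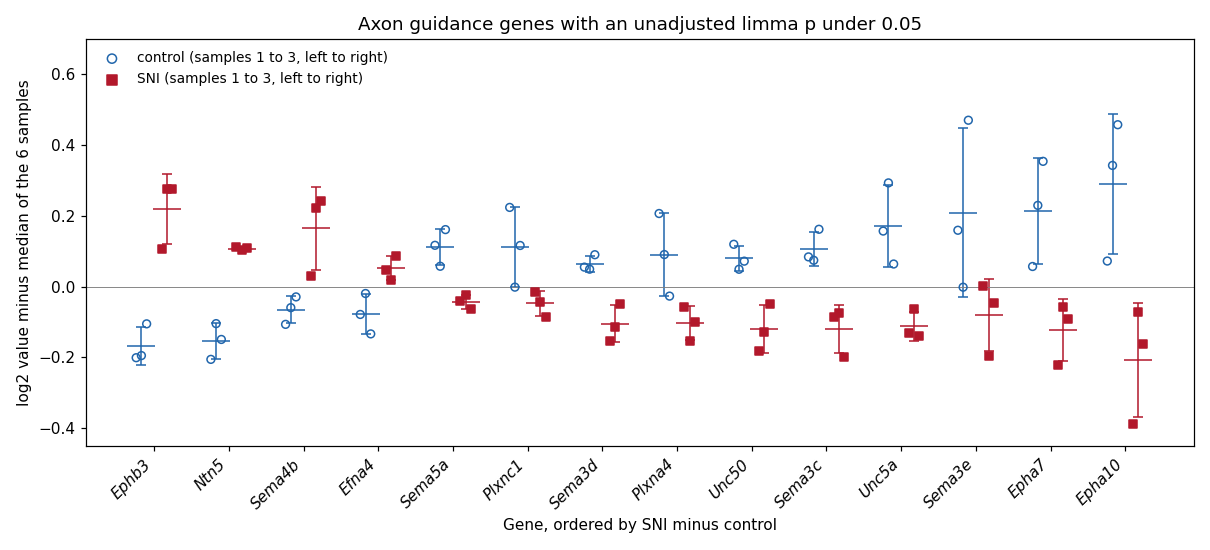
Centred log2 values (y axis) of the 14 genes with an unadjusted p under 0.05, ordered by their difference, with control samples as open circles, SNI samples as filled squares, and lines for the mean and SD of each group (n = 3). The groups overlap for Sema3e, and Ntn5 has the tightest SNI values, from 0.10 to 0.11.

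Ephb3 and Ntn5 kept an unadjusted p under 0.05 in all 15 other ways of processing. Their differences were between 0.36 and 0.57 for Ephb3 and between 0.23 and 0.34 for Ntn5. Not all of the 15 could change them. Each gene is read by 1 probe set, so taking the median of the probe sets left its values as they were. Leaving out probe sets that may read several transcripts did so too. Without control samples 1 and 3 their differences were 0.41 and 0.21. The other 12 genes lost an unadjusted p under 0.05 in at least 1 of the 15. For Epha10, Epha7, Sema3c, Unc50 and Unc5a this happened only with the hybridization controls as a covariate, which that fit can hardly separate from the group. Unc50 differed by -0.20 (adjusted p = 0.234 in limma). Sema4b lost it only without SNI sample 3. Leaving out a single sample also cost 6 further genes their unadjusted p under 0.05, in some cases while the difference stayed as large. All 6 also lost it in at least 1 setting that kept every sample, such as Plxna4 by the methods' t-test and Plxnc1 with array medians aligned. Sema3d did not pass without SNI sample 1 (-0.15). Sema5a did not pass without SNI sample 1 (-0.16), SNI sample 3 (-0.14) or control sample 3 (-0.13). Plxna4 did not pass without SNI sample 2 (-0.17), SNI sample 3 (-0.20) or control sample 1 (-0.14). Sema3e did not pass without SNI sample 2 or 3 or control sample 1 or 3, with differences from -0.31 to -0.16. Plxnc1 and Efna4 did not pass without any 1 of the 5 samples other than control sample 2, with differences from -0.18 to -0.10 and from 0.10 to 0.14.

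By role, 21 of the 29 receptors and co-receptors had differences below 0, with a median of -0.064, and 14 of the 27 ligands did, with a median of -0.0081. Among all genes 54.8% were below 0. Of the receptors 1 was higher (3.45%) and 5 were lower (17.2%). Of the ligands 3 were higher (11.1%) and 4 were lower (14.8%). The shares of all genes were 3.96% and 9.19%. The median of the semaphorin, plexin and neuropilin genes was -0.021, that of the ephrin and Eph genes -0.016, that of the Slit and Robo genes -0.092 and that of the netrin, Dcc and Unc5 genes -0.062. These families differ in size from 6 to 27 genes, and no test between them was made. The spread within a group was larger in the controls for 43 of the 58 genes (74.1%), as it was for 70.6% of all genes.

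**Figure D3:**
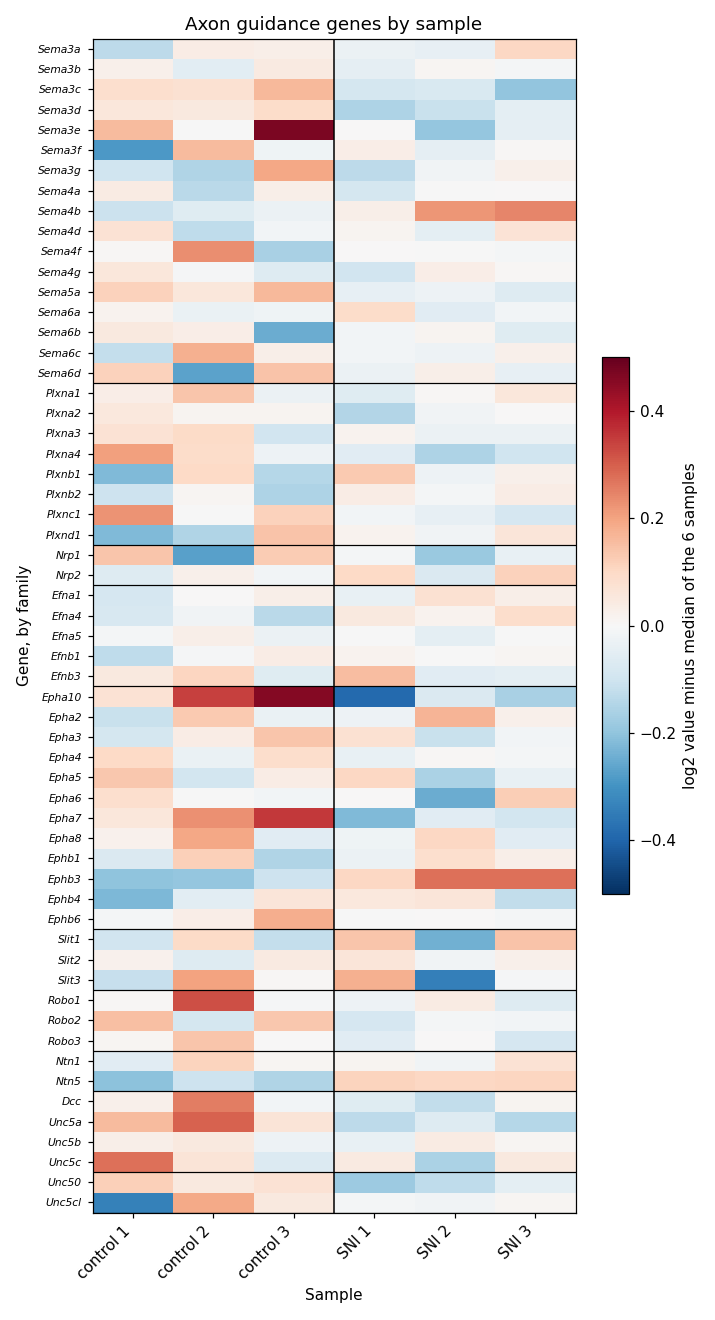
Centred log2 values of the 58 genes (rows, by family) in the 6 samples (columns, controls left and SNI right), on a colour scale from -0.5 (blue) to 0.5 (red). Epha10, Epha7, Unc5a, Ephb3 and Ntn5 change colour between the groups, while most rows stay pale, with differences between -0.094 and 0.039 from the lower to the upper quartile of the genes.

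Of the 58 genes, 24 were read by several probe sets, and these did not always move together. In 10 of the 24, probe sets of the same gene had differences on both sides of 0, and in 5 they were more than 0.3 apart. For Epha7 they were -0.53 and -0.14, for Plxna4 -0.37 and -0.02, and for Sema5a they ran from -0.35 to -0.03. In each of these 3 lower genes a single probe set passed an unadjusted p of 0.05. For Epha4, a receptor for ephrins of both classes, the 4 probe sets ran from -0.28 to 0.03 and the gene value was -0.06, while Efna5, one of its ligands, was at -0.01. For Sema6a the 5 probe sets ran from -0.11 to 0.20. Epha4 (-0.28), Nrp1 (-0.19) and Nrp2 (0.19) each had 1 probe set past an unadjusted p of 0.05 although the gene value did not pass. At the level of probe sets, 4 of 97 were higher (4.12%, against 5.6% of all probe sets) and 12 were lower (12.4%, against 7.47%). None of the 97 passed an adjusted p of 0.05 in limma; the probe set of Ephb3 was nearest, at 0.0993. The higher share of probe sets thus lay below that of all probe sets, unlike the share of genes. Of the 14 genes with an unadjusted p under 0.05, 10 were read by 1 probe set only. Which part of a transcript each probe set reads was not analysed here.

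**Figure D4:**
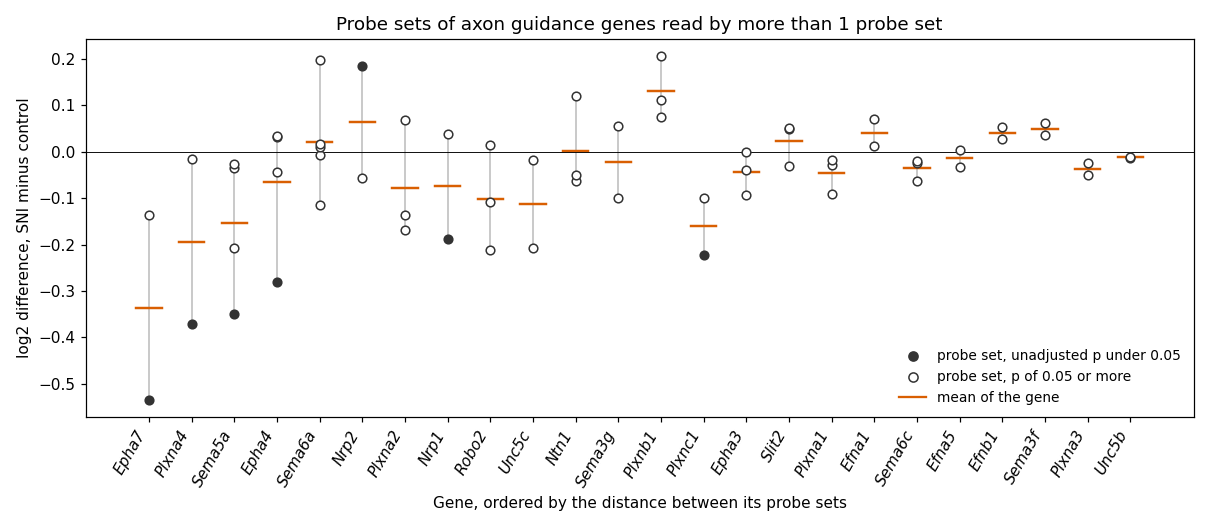
Difference of the SNI group from the control group (log2 scale, y axis) of every probe set of the 24 genes read by several, ordered by the distance between their probe sets, with filled points for an unadjusted p under 0.05 and an orange line for the mean. The probe sets of Epha7, at -0.53 and -0.14, are the farthest apart, and those of 10 genes lie on both sides of 0.

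Other genes of axon guidance were taken from lists of ligands and co-receptors outside these families and of intracellular effectors. Of 33 other ligands and co-receptors, 3 were higher (9.09%) and 4 were lower (12.1%), with a median of -0.05. The smallest p-values were those of Cxcl12, a chemokine that also guides axons and interneurons (-0.26, adjusted p = 0.196 in limma), and Cntn4, an adhesion molecule of the contactin family (-0.27, adjusted p = 0.197 in limma). Of 62 effectors, 2 were higher (3.23%) and 10 were lower (16.1%), with a median of -0.03. The smallest p-values were those of Vav3 (-0.33) and Vav2 (-0.26), signalling proteins that act below Eph receptors, both with an adjusted p of 0.20 in limma. No gene of either list passed an adjusted p of 0.05. Together 5 were higher and 14 were lower, while 3.96% and 9.19% of all genes were. By the methods' t-test they were 3 and 13 (3.67% and 8.9% of all genes). With the hybridization controls as a covariate they were 2 and 6 (4.05% and 4.42% of all genes). Without control sample 2 they were 6 and 21 (8.53% and 14.6% of all genes). Without SNI sample 3 they were 2 and 8 (2.36% and 5.7% of all genes).

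Markers of several cell types differed between the groups, while the sample means of other marker lists overlapped. In bulk tissue, fewer cells of a type and less RNA per cell cannot be told apart. Beside the counts that follow, 3.96% of all genes were higher and 9.19% were lower. Of 13 microglia markers, 9 were higher in the SNI group (69.2%) and none was lower, with a median of 0.22. The mean of this list was between 0.056 and 0.17 in the SNI samples and between -0.16 and -0.067 in the control samples. Neuronal markers had a median of -0.12, with 2 higher and 4 lower of 18, and markers of the neighbouring striatum -0.16, with 3 lower of 9. These 3 were Penk (-0.40), Tac1 (-0.50) and Ppp1r1b (-0.26). Drd1, Rarb and Pde10a lay below 0 without passing, and Drd2 (0.02), Adora2a (0.05) and Rgs9 (0.0041) lay above 0 without passing. The means of the neuronal list overlapped between the groups, from -0.10 to -0.0059 in the SNI samples and from -0.035 to 0.12 in the control samples. Those of the striatal list did not, from -0.075 to -0.050 and from 0.099 to 0.11. Markers of myelinating oligodendrocytes had a median of -0.15 (1 lower of 11), those of oligodendrocyte precursors 0.12 (2 higher of 7), of endothelium 0.10 (3 higher of 11), of astrocytes 0.10 (1 higher of 11) and of blood cells 0.13 (2 higher of 6). Those of pericytes (0.07, 1 higher of 8), cortical layers (-0.03, 1 higher and 1 lower of 11), meninges (0.04, none of 10) and choroid plexus (0.01, none of 6) were nearer to 0. Because the values are centred, it could not be read which of these markers were at or near background. The part of these cell types in the differences of the axon guidance genes was not tested.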

How the data were processed

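mRNA of 3 SNI and 3 control samples of contralateral PL was measured on Affymetrix GeneChip rat genome arrays. The authors used RMA for background correction, followed by log2 transformation and quantile normalization. Beyond that, the deposited log2 values have the median of the 6 samples subtracted from every probe set, a step the sources used here do not describe. All probe set medians were 0 within 4.78e-07, so differences between samples can be read, but neither levels nor detection. Software versions and the genome build: not given in the sources used here.

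Groups came from the sample labels. Of 31099 probe sets, 57 array controls were left out. Symbols were those of the platform annotation, and a gene value was the mean over its probe sets, leaving out probe sets with several symbols (14217 genes from 20826 probe sets). Each gene was fitted with lmFit and eBayes in limma 3.58.1 (R 4.3.3), SNI minus control, two-sided, without covariates, with Benjamini-Hochberg adjustment over all 14217 genes. The 31042 probe sets were fitted likewise. With 3 samples a group, no exact permutation p below 0.1 is possible. The script was tested on simulated data. Python 3.11.15 with matplotlib 3.10.9 drew the figures. Promoters came from RefSeq (GRCr8) and were matched by symbol.

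The genes and lists were chosen with earlier results of these data known. Named by rule were genes with an unadjusted p under 0.05, the smallest p and the largest difference in each direction of each family, textbook partners of named genes, genes whose probe sets lay more than 0.3 apart, and 2 genes of each other list. Other genes given by value were named for their role after their values had been seen. Genes of the same families that the rule did not find were not analysed here. Results were recomputed with array medians aligned, with quantile normalization run again, with the methods' t-test, at an unadjusted p under 0.01 or an adjusted p under 0.10, with the median of the probe sets, with probe sets that may read several transcripts left out, robust eBayes, arrays weighted by their quality, the hybridization controls as a covariate, a replicate block, and each sample left out in turn. Leaving out control replicates 1 and 3 together was chosen after seeing the data. Same-numbered samples did not deviate together (correlations of -0.022, -0.0074 and -0.045), so the numbers were not taken as pairs.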

Additional observations from a re-analysis of the deposited data

How the results depend on the processing

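No axon guidance gene passed an adjusted p of 0.05 in limma under any alternative, and 177 of 222 recomputed counts and medians stayed within 1.5 times the reported count or 1 SD of the reported median. At an unadjusted p under 0.01, 2 genes were higher and 5 lower, against 1.1% and 3.04% of all genes. At that p, 2 probe sets were higher and 7 lower, and 0 and 6 of the other axon guidance genes. At an adjusted p under 0.10, 1 probe set (Ephb3) passed. With arrays weighted, 8 probe sets were higher at an unadjusted p under 0.05 and 6 passed an adjusted p of 0.05 in limma. These 6 were of Ephb3, Ntn5, Epha10, Epha7, Epha4 and Sema5a. In that setting 7.71% of all genes were higher and 14.5% lower. An adjusted p of 0.05 was passed by 17 of all 14217 genes, none of them an axon guidance gene. The shares of all probe sets were not computed for the alternatives. The weights ran from 0.347 for control sample 2 to 2.20 for SNI sample 3. The median difference was then -0.0075 over all axon guidance genes, 0.0094 for semaphorins, plexins and neuropilins, and -0.012 for netrins and their receptors. With the hybridization controls as a covariate, 4 genes and 6 probe sets were lower. The share of all genes that were lower went from 9.19% to 4.42%. In that setting the ephrin and Eph median was 0.068, and the other axon guidance genes were 2 higher and 6 lower. Epha10 (0.076) and Epha7 (0.039) turned their direction. The covariate does not overlap between the groups, so this fit can hardly separate the effects of covariate and group, and the cause was not tested. The methods' t-test gave 3 of the other axon guidance genes higher, with 3.67% of all genes higher. With a single control left, the groups fail to overlap by chance more easily than with 3 controls. The share of all genes without overlap was not computed for that case, so its counts without overlap cannot be set against the reported ones. Without control samples 1 and 3, the lone control being assumed to vary like the SNI samples, 14 genes lay above and 28 below it without overlap, 7 probe sets were higher, and the medians were -0.053 over all axon guidance genes, -0.046 for semaphorins, plexins and neuropilins, and -0.040 for ephrins and Eph receptors.

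With each sample left out in turn, between 2 and 7 genes were higher and between 6 and 13 lower. Among all genes the shares ranged from 2.36% to 8.53% higher and from 5.69% to 14.6% lower. Between 4 and 8 genes of the set were higher and between 11 and 17 lower without overlap. The shares of all genes without overlap were not computed in these settings. Between 2 and 8 probe sets were higher and between 9 and 17 lower. The median ranged from -0.030 to -0.0051 over all axon guidance genes, from -0.029 to 0.022 for ephrins and Eph receptors, from -0.089 to -0.013 for Slits and Robos, and from -0.11 to -0.028 for netrins and their receptors. The other axon guidance genes ranged from 1 to 6 higher and from 8 to 21 lower. The fewest and the most genes of the set with an unadjusted p under 0.05, in either direction, came without SNI sample 3 and without control sample 2. Of the 18 genes that did not pass but were chosen by the naming rule, 12 changed sign in at least 1 of 15 alternatives; the other genes given by value were not followed through the alternatives one by one. Of the 18, Nrp1 and Plxnb1 passed an unadjusted p of 0.05 in some.

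The replicate number was also used as a block, although the numbers do not pair the samples. Then 3 genes were higher and 8 lower, against 3.51% and 7.46% of all genes, and 4 probe sets were higher and 12 lower. None passed an adjusted p of 0.05 in limma. Efna4, Plxnc1 and Sema5a no longer passed the unadjusted p. Centred values show no signal over background, and the 3 arrays per group limit the precision.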
